A study of Mus musculus with 10 samples.

Results

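The DNA methyltransferase genes Dnmt3a, Dnmt3b, Dnmt3l and Dnmt1 were examined for the histone marks H3K4me3 and H3K27me3 in mouse embryonic stem (ES) cells and after differentiation. The members are 4 fixed windows of the mouse genome build mm9, one for each gene: Dnmt3a at chr12:3800001-3916000 (116 kb), Dnmt3b at chr2:153470001-153515000 (45 kb), Dnmt3l at chr10:77500001-77530000 (30 kb) and Dnmt1 at chr9:20708001-20765000 (57 kb). Together they hold 125 of 1319479 bins of 2 kb, with 58 bins at Dnmt3a, 23 at Dnmt3b, 15 at Dnmt3l and 29 at Dnmt1. No gene model of mm9 was used, so the windows carry the gene names by their position alone, and promoters, exons and introns within them are not assigned.

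Chromatin immunoprecipitation and sequencing (ChIP-seq) of 10 libraries was used, with 1 library for each line, state and mark. XT67E1 cells (strain label C3H/Pgk*129) were profiled for both marks on day 4 of treatment with all-trans retinoic acid (atRA), as embryoid bodies (EBs, cell aggregates formed without the cytokine LIF) at 10 days, and undifferentiated. LF2 and E14 cells (strain label 129/Ola) were profiled for H3K27me3 as EBs at 10 days and undifferentiated. All 3 lines had been kept in serum with LIF on gelatin, and each is 1 established line, so XT67E1 differs from the others in both line and strain label. E14 also held more Y chromosome reads, 674 in EBs and 912 in undifferentiated cells, against 119 and 124 in LF2. The XT67E1 H3K27me3 libraries held 98 to 119. Whether this bears on differences between the lines was not tested. EBs are mixed cell populations, and a lower read count from fewer marked cells cannot be told apart from less mark per cell.

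DNA methyltransferases add methyl groups to cytosine, mostly where it is followed by guanine (a CpG). Dnmt3a and Dnmt3b are the de novo enzymes that methylate unmodified DNA, Dnmt3l is a catalytically inactive partner that stimulates them, and Dnmt1 copies methylation onto the new strand after replication. H3K4me3 marks active and poised promoters, and H3K27me3 is laid down by Polycomb repressive complex 2 on silent or lowly transcribed genes. In ES cells CpG-rich promoters can carry both marks, a state called bivalent.

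The CpG content of the members' promoters is shown here because both marks are known to follow CpG-rich DNA. The 250 bases before the first RefSeq start of each gene (GRCm38.p6, 5′ to 3′ on the gene's strand, CpG dinucleotides in capitals) lie at chr12:3806730-3806979 on the plus strand for Dnmt3a, chr2:153649199-153649448 on the plus strand for Dnmt3b, chr10:78042037-78042286 on the plus strand for Dnmt3l and chr9:20959889-20960138 on the minus strand for Dnmt1. These coordinates are of another build than the read positions and were not carried over to mm9.
Dnmt3a: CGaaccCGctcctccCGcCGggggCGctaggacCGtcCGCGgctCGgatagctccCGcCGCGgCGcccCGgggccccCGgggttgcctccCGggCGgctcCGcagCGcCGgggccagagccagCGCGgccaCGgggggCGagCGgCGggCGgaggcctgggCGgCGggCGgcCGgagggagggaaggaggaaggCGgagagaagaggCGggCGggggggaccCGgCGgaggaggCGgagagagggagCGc
Dnmt3b: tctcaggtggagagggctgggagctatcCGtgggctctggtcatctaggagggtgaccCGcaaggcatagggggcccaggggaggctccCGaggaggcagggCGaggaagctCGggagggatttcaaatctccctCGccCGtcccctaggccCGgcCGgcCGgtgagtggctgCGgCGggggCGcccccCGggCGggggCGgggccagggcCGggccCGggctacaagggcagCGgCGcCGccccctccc
Dnmt3l: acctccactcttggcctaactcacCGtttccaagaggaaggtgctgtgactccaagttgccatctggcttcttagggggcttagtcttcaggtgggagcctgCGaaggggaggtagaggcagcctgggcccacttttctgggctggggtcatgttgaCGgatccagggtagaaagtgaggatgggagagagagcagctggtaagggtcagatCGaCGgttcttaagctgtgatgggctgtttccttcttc
Dnmt1: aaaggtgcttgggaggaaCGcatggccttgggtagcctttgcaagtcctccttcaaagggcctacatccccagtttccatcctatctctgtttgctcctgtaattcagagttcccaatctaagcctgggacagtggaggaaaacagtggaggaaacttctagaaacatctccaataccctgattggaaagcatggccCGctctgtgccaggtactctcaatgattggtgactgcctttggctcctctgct
The letters CG, which read the same on both strands, occurred 38 times before the first Dnmt3a start and 21 times before the Dnmt3b start. They occurred 5 times before the first Dnmt3l start and 2 times before the first Dnmt1 start. Over 32851 mouse promoters of the same length the median was 6 and 92.1% held at least 1 CG. In CG number the first Dnmt3a start lay above 98.1% of promoters and the Dnmt3b start above 83.7%. RefSeq lists further starts for 3 of the 4 genes. Those of Dnmt3a had 40 and 15 CG, the start with 15 lying 84.8 kb from the first, those of Dnmt3l had 4 and 3, and those of Dnmt1 had 7 and 26, the start with 26 lying above 90.4% of promoters.

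Every library of a set had been reduced to the same number of reads, 2252395 for each H3K4me3 library, 8380007 for each XT67E1 H3K27me3 library and 4531733 for each LF2 or E14 library. Levels are given as reads per 1000000 autosomal reads (RPM), with 2153974 to 2156836 autosomal reads for H3K4me3, 7952736 to 8021002 for XT67E1 H3K27me3 and 4309553 to 4420494 in the other lines. A 2 kb bin held on average 1.78 to 1.79 H3K4me3 reads and 3.57 to 6.64 H3K27me3 reads, so most bins of the windows were too shallow for a ratio. Libraries of a mark shared 0.381% to 1.26% of their read positions. A ratio of 2 libraries was called by size when it reached 2-fold on the log2 scale (pseudocount 1 read), its exact conditional binomial 95% interval excluded no change, and the 2 libraries held at least 20 reads. With 1 library per group, such a call has no replicate check and its interval covers counting error only. Markers of the labelled cell types were not analysed here.

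By the rule given next, 5 short H3K4me3 regions were found, 1 each at Dnmt3a, Dnmt3b and Dnmt1 and 2 at Dnmt3l. A region was a run of adjacent 2 kb bins with at least 30 H3K4me3 reads summed over the 3 XT67E1 libraries, so the H3K4me3 level of a region follows from how it was chosen and is given as a description. The Dnmt1 region had the most reads, and it was lower in both differentiated states than in undifferentiated cells without reaching 2-fold. The Dnmt3a and Dnmt3b regions had ratios whose intervals included no change. The first Dnmt3l region was low after atRA.

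The Dnmt3a region at chr12:3806001-3808000 held 44 H3K4me3 reads after atRA, 39 in EBs and 40 in undifferentiated cells. The log2 ratio to undifferentiated cells was 0.14 after atRA (95% interval -0.51 to 0.79) and -0.036 in EBs (-0.71 to 0.64). Neither interval excluded no change, and a difference within those bounds was not detectable at this depth. The region held 22.7% to 25.4% of the H3K4me3 reads of the Dnmt3a window. Further along the window, the bins chr12:3870001-3872000, chr12:3890001-3892000 and chr12:3892001-3894000 held 21, 20 and 22 H3K4me3 reads over the 3 libraries, below the minimum of 30. A minimum of 20 reads gave 7 regions over the 4 windows, the added ones at these Dnmt3a bins. With a minimum of 50 reads there were 5.

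At Dnmt3b the region chr2:153474001-153478000 held 52 H3K4me3 reads after atRA, 44 in EBs and 40 in undifferentiated cells. The log2 ratio was 0.37 after atRA (-0.24 to 1.01) and 0.13 in EBs (-0.51 to 0.79). The 3 counts overlapped within counting error. Outside this region the Dnmt3b window lay near the autosomal mean for H3K4me3, at 0.934 to 1.17 times that mean.

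Dnmt3l had 2 regions of lower H3K4me3. The first, chr10:77500001-77502000 at the edge of the window, held 7 reads after atRA, 28 in EBs and 25 in undifferentiated cells. The atRA library was the low one, and the EB and undifferentiated libraries were close to each other. The log2 ratio of atRA to undifferentiated cells was -1.70 (-3.29 to -0.58), called lower, as were 9.73% of the 10862 H3K4me3 regions tested after atRA. EBs exceeded atRA cells by a log2 ratio of 1.86 (0.77 to 3.44), and 1.85% of 10490 regions were called higher in that comparison. The second region, chr10:77512001-77514000, held 17 reads after atRA, 18 in EBs and 23 in undifferentiated cells, with a log2 ratio of -0.41 after atRA (-1.43 to 0.53) and -0.34 in EBs (-1.33 to 0.60). The whole Dnmt3l window, this edge region included, held 52 H3K4me3 reads after atRA, 84 in EBs and 91 in undifferentiated cells. The window ratio after atRA was -0.79 (-1.33 to -0.30), and 3.73% of windows of the same length tiled over the genome were lower. In the RefSeq order the neighbouring genes of Dnmt3l are Aire and Icosl, and to which gene the first region belongs was not determined.

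The Dnmt1 region at chr9:20756001-20758000, the strongest of the 5, held 46 H3K4me3 reads after atRA, 47 in EBs and 85 in undifferentiated cells. These are 21.4 RPM after atRA, 21.8 RPM in EBs and 39.4 RPM in undifferentiated cells. The undifferentiated library stood above both differentiated ones, which were alike. The log2 ratio was -0.87 after atRA (-1.43 to -0.35) and -0.84 in EBs (-1.40 to -0.32). Both intervals excluded no change while the size stayed under 2-fold, so the region was not called. Scaling by the median of bin ratios moved the EB ratio to -0.51. This shift of 0.33 exceeds the EB interval's distance from no change, so the EB result depends on the scaling. In 1 kb bins the region's upper part, chr9:20757001-20758000, held 15 reads after atRA, 15 in EBs and 40 in undifferentiated cells. This part was called lower in both states, at -1.36 after atRA (-2.38 to -0.53) and -1.36 in EBs (-2.38 to -0.53). So were 1756 of 16937 tested bins of 1 kb after atRA and 2402 of 16801 in EBs. The median over all H3K4me3 regions was 0.0019 after atRA and -0.32 in EBs, so H3K4me3 regions at large also had fewer reads in EBs. The reads of the Dnmt1 window outside the region did not move with it, at 65 after atRA, 63 in EBs and 65 in undifferentiated cells. Of the 6 window bins deep enough, 1 was called in atRA cells (the first Dnmt3l region) against 16.9% of all bins, and none was called in EBs against 15.8% of all bins. Among the 5 regions, 0 were called in EBs, against 13.4% of all regions.

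**Figure D1:**
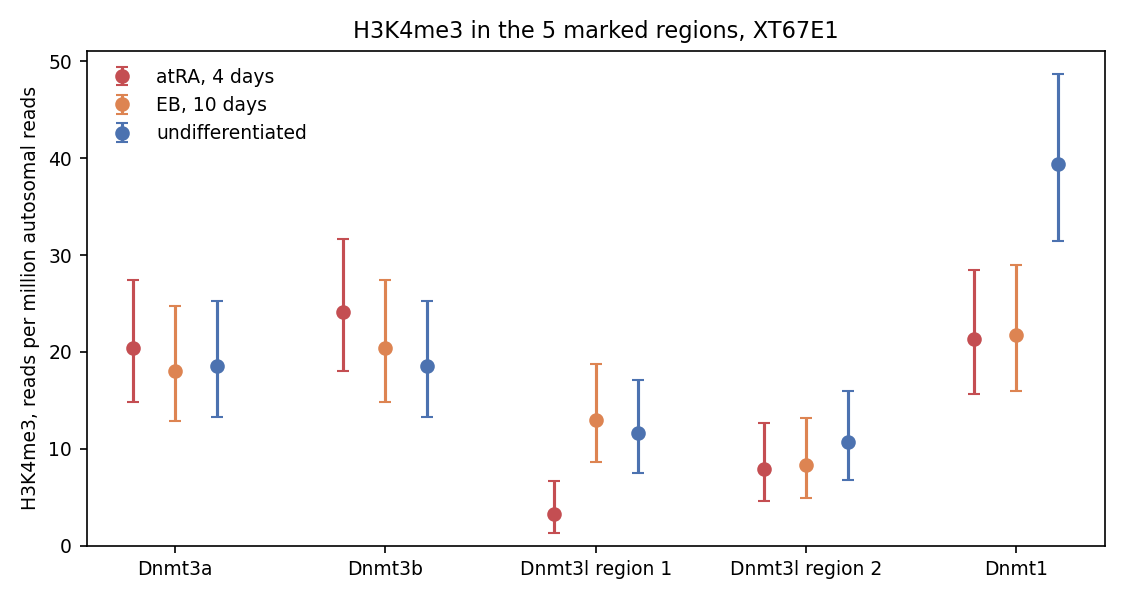
H3K4me3 in the 5 regions of the methyltransferase windows in XT67E1 (y axis, RPM; points are single libraries of atRA cells, EBs and undifferentiated cells, bars are exact Poisson 95% intervals). The Dnmt1 region stood at 21.4 and 21.8 RPM in atRA cells and EBs against 39.4 RPM in undifferentiated cells, and the first Dnmt3l region was low in atRA cells at 3.25 RPM.

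H3K27me3 density relative to the autosomal mean was highest over Dnmt3a and lowest over Dnmt1 in all 7 libraries, with Dnmt3b and Dnmt3l between them. The Dnmt3a window was above the autosomal mean density in all 7 H3K27me3 libraries. In XT67E1 it lay at 1.14 times that mean after atRA, 1.34 times in EBs and 1.21 times in undifferentiated cells. LF2 had 1.32 times in EBs and 1.41 times in undifferentiated cells, and E14 had 1.41 times in EBs and 1.67 times in undifferentiated cells. The undifferentiated E14 library was the highest, and its value exceeded 92.7% of tiles of the same length. In the other libraries this share ran from 70.7% in atRA cells to 86.3% in E14 EBs. The Dnmt1 window lay below the mean in all 7 libraries, with 0.518 times after atRA, 0.932 times in EBs and 0.729 times in undifferentiated XT67E1 cells. In the other lines the Dnmt1 window had 0.826 times the mean in LF2 EBs, 0.738 times in undifferentiated LF2, 0.633 times in E14 EBs and 0.682 times in undifferentiated E14. The intervals of XT67E1 EBs (0.799 to 1.08) and LF2 EBs (0.659 to 1.02) included the mean. The share of same-length tiles below the Dnmt1 window ran from 17.1% in atRA cells to 53.7% in XT67E1 EBs.

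Dnmt3b and Dnmt3l lay on both sides of the mean. The Dnmt3b window had 0.710 times the mean after atRA, 1.13 times in EBs and 0.803 times in undifferentiated XT67E1 cells. It had 1.01 times in EBs of both LF2 and E14, against 1.35 and 1.36 times in the undifferentiated cells. In XT67E1 the EBs had more H3K27me3 over Dnmt3b than undifferentiated cells, and in the other lines less. The difference between lines was not tested. The Dnmt3l window had 0.884 times after atRA, 1.15 times in EBs and 0.833 times in undifferentiated XT67E1 cells. It had 1.21 times in EBs against 0.886 times in undifferentiated LF2, and 1.11 times in EBs against 0.912 times in undifferentiated E14. Dnmt3l was the member with more H3K27me3 in EBs in each of the 3 lines.

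**Figure D2:**
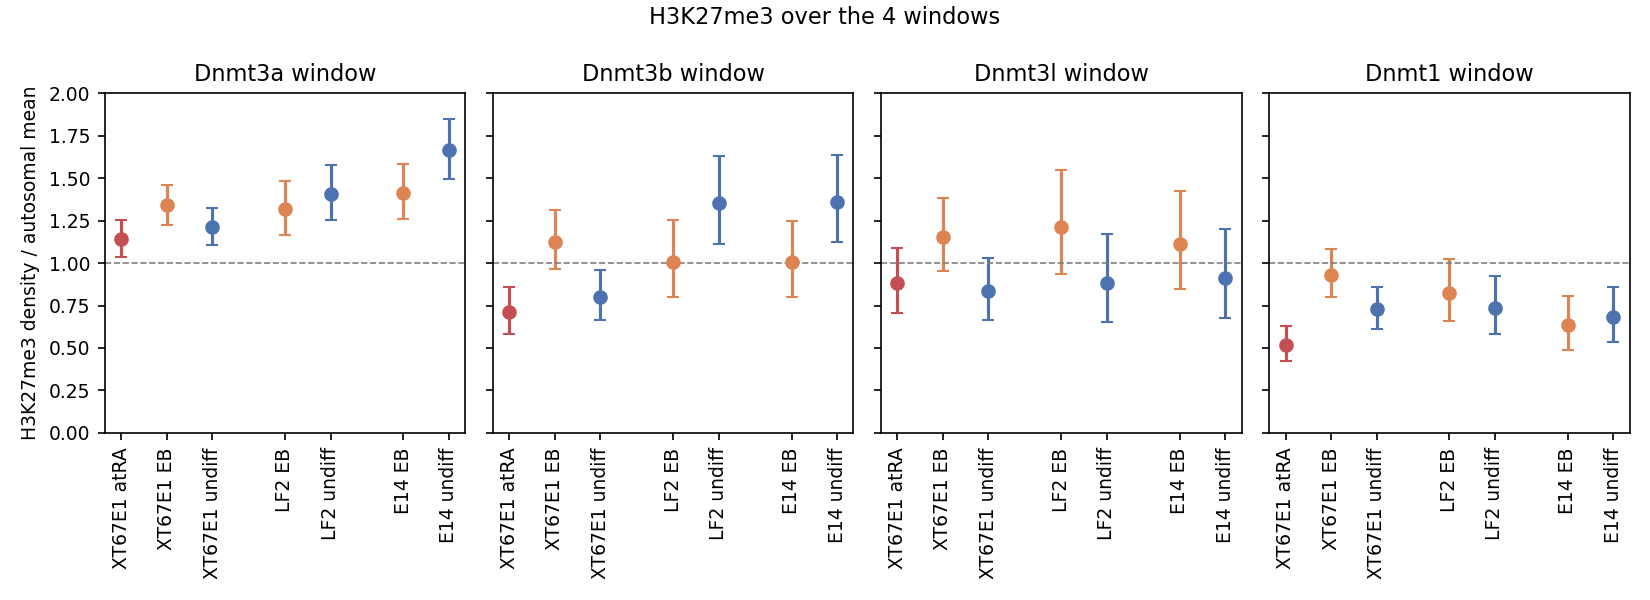
H3K27me3 density in each gene's window relative to the autosomal mean of the same library (y axis; dashed line at 1; points are single libraries, bars exact Poisson 95% intervals; undiff is undifferentiated). Dnmt3a lay above 1 and Dnmt1 below 1 in all 7 libraries, and Dnmt3l was higher in EBs than in undifferentiated cells of each line.

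The Dnmt3l window had 114 H3K27me3 reads in EBs and 83 in undifferentiated XT67E1, 65 in EBs and 48 in undifferentiated LF2, and 61 in EBs and 50 in undifferentiated E14. The 3 log2 ratios were 0.47 (XT67E1), 0.45 (LF2) and 0.28 (E14), with a mean of 0.40 ± 0.10 (SD, n = 3 lines; exact two-sided sign-flip permutation test p = 0.25, the smallest that 3 lines allow). The XT67E1 interval was 0.050 to 0.90 and the intervals of the other lines included no change. Background scaling moved the XT67E1 ratio to 0.36. This shift of -0.11 is larger in size than that interval's distance from no change, so the exclusion depends on the scaling. In XT67E1, 90.1% of tiles of the same length had a lower ratio, in LF2 78.5% and in E14 80.9%.

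Over the 3 lines the other windows showed no common direction. The mean log2 ratio of EBs to undifferentiated cells was -0.062 ± 0.19 at Dnmt3a, where XT67E1 gave 0.14, LF2 -0.093 and E14 -0.24 (exact permutation p = 0.75). At Dnmt3b it was -0.12 ± 0.53, where XT67E1 gave 0.49, LF2 -0.42 and E14 -0.43 (exact permutation p = 1). At Dnmt1 it was 0.14 ± 0.23, where XT67E1 gave 0.35, LF2 0.16 and E14 -0.11 (exact permutation p = 0.5). The maintenance enzyme's window had 98 reads after atRA in XT67E1, against 138 in undifferentiated cells, a log2 ratio of -0.49 (-0.88 to -0.11) in 1 library per state. In this comparison 5.38% of same-length tiles had a lower ratio. Background scaling moved the ratio to -0.35. This shift of 0.14 exceeds the interval's distance from no change, so the exclusion of no change depends on the scaling.

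At the Dnmt3a H3K4me3 region, undifferentiated E14 cells carried far more H3K27me3 than the other 6 libraries, E14 EBs included. H3K27me3 reads in the region numbered 10 after atRA, 4 in EBs and 16 in undifferentiated XT67E1. LF2 had 9 in EBs and 8 in undifferentiated cells, and E14 had 9 in EBs and 42 in undifferentiated cells. In RPM this is 1.25 after atRA, 0.503 in EBs and 1.99 in undifferentiated XT67E1. It is 2.09 in EBs and 1.83 in undifferentiated LF2, and 2.04 in EBs and 9.52 in undifferentiated E14. The undifferentiated E14 library alone stands apart. H3K27me3 was read independently of the reads that chose the region. H3K4me3 was profiled in XT67E1 alone, so both marks can be compared at this region in that line only.

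The E14 EB to undifferentiated log2 ratio at the Dnmt3a region was -2.11 (-3.45 to -1.17), called lower, as were 21.0% of 3316 H3K4me3 regions in that line. In XT67E1 the ratio was -1.75 (-4.03 to -0.36), also called lower, against 1.95% of 4049 regions. This XT67E1 call rests on 20 reads in both libraries together. LF2 had 17 reads in its 2 libraries, below the minimum, and a ratio of 0.17 (-1.36 to 1.76). Whether the lines differ in this change was not tested, as each has 1 library per state. After atRA the XT67E1 ratio was -0.63 (-1.98 to 0.55).

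Between undifferentiated lines, E14 exceeded XT67E1 at the Dnmt3a region by a log2 ratio of 2.20 (1.39 to 3.18) and LF2 by 2.24 (1.27 to 3.68). E14 was called higher than XT67E1 in 49.1% of 3526 regions, with a median ratio of 1.10, so a higher count in E14 was common at such regions. Against LF2 the share was 18.2% of 3174 regions and the median 0.36. In EBs the region's 9 reads in E14 stood against 4 in XT67E1 and 9 in LF2, too few for a call.

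The flanks of the Dnmt3a region differed from each other. In the 6 kb before the Dnmt3a region (lower coordinates), H3K27me3 was 3.67 times the autosomal mean after atRA, 3.19 times in EBs and 3.11 times in undifferentiated XT67E1. LF2 had 4.30 times in EBs and 3.41 times in undifferentiated cells, and E14 had 5.01 times in EBs and 4.65 times in undifferentiated cells. This flank was enriched in all 7 libraries and was not lower in EBs in any line. In the 6 kb after the region (higher coordinates), XT67E1 had 2.16 times the mean after atRA, 2.18 times in EBs and 1.66 times in undifferentiated cells. LF2 had 1.31 times in EBs and 3.14 times in undifferentiated cells, and E14 had 1.82 times in EBs and 2.55 times in undifferentiated cells. That flank, like the region itself in E14, was lower in EBs of LF2 and E14, and it was higher in EBs of XT67E1. Inside the region the undifferentiated E14 library reached 11.5 times the mean, against 0.607 to 2.52 times in the other 6. The 2 bins with the most H3K27me3 in the Dnmt3a window, chr12:3804001-3806000 and chr12:3802001-3804000, lie in the flank before the region and exceed 99.3% and 99.1% of all 2 kb bins in mean RPM.

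**Figure D3:**
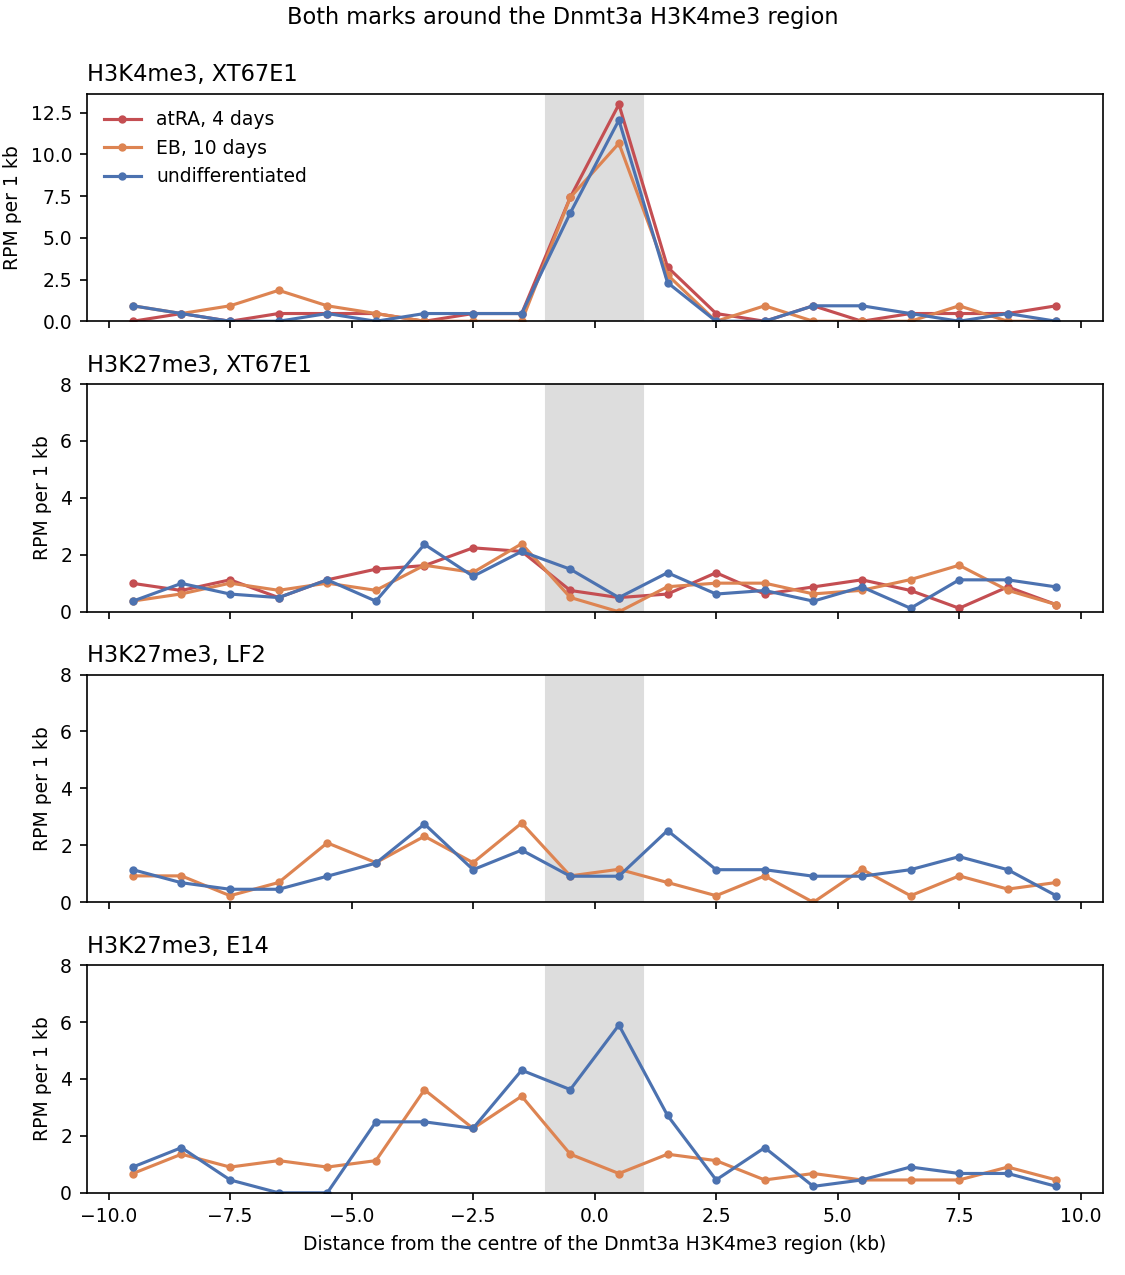
H3K4me3 in XT67E1 and H3K27me3 in the 3 lines around the centre of the Dnmt3a H3K4me3 region (x axis, kb; y axis, RPM in steps of 1 kb; lines are single libraries; the grey band is the 2 kb region). H3K27me3 peaked inside the band in undifferentiated E14 only among these 7 libraries, while the flank to its left was above the autosomal mean in each.

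At Dnmt3b the H3K4me3 region held 21 H3K27me3 reads after atRA, 30 in EBs and 17 in undifferentiated XT67E1. LF2 had 12 in EBs against 30 in undifferentiated cells, and E14 had 19 in EBs against 22 in undifferentiated cells. LF2 was the line with the larger gap. The LF2 ratio was -1.24 (-2.40 to -0.30), called lower, as were 22.0% of 2537 regions in that line, whose median was -0.45. The XT67E1 ratio pointed the other way at 0.80 (-0.073 to 1.78) and E14 gave -0.20 (-1.18 to 0.74), both without a call. With LF2 scaled by the median of bin ratios, its ratio was -0.91, under 2-fold. This shift of 0.33 exceeds the LF2 interval's distance from no change, so the LF2 result depends on the scaling. The ratio of undifferentiated E14 to XT67E1 was 1.22 (0.25 to 2.24), called higher as in 49.1% of regions and close to their median of 1.10. The ratio of undifferentiated E14 to LF2 was -0.45 (-1.33 to 0.38).

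The H3K4me3 regions of Dnmt1 and Dnmt3l held few H3K27me3 reads, at 0.151 to 1.67 times the autosomal mean. The Dnmt1 region held 1 read after atRA, 4 in EBs and 4 in undifferentiated XT67E1, 3 in EBs and 1 in undifferentiated LF2, and 2 in EBs and 6 in undifferentiated E14. The Dnmt3l regions held 2 to 11 reads in any library. Every comparison there fell below the minimum of 20 reads, and a change was not detectable at this depth.

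Few 2 kb bins of the windows were called in H3K27me3, at shares close to those of all bins. After atRA 1 of 24 tested bins was called, against 5.80% of all bins; it lies at Dnmt3b, chr2:153472001-153474000, with 8 reads after atRA against 20 in undifferentiated cells. In XT67E1 EBs 2 of 24 were called, against 6.30%, namely the Dnmt3a region (lower) and chr12:3822001-3824000 at Dnmt3a with 15 reads in EBs against 5 in undifferentiated cells (higher). In LF2 EBs 1 of 8 was called, against 14.5%, the bin chr12:3808001-3810000 next to the Dnmt3a region with 4 reads in EBs against 16 in undifferentiated cells. In E14 EBs 1 of 6 was called, against 15.3%, the Dnmt3a region. The median log2 ratio of the tested member bins was 0.0012 after atRA, beside 0.075 over all tested bins. It was 0.099 in XT67E1 EBs beside -0.10, -0.22 in LF2 EBs beside -0.33, and -0.36 in E14 EBs beside 0.16.

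The EB and undifferentiated libraries of the 3 lines were tested jointly with limma (10 kb bins, cell line as a block). It called 303 of 227429 bins at an adjusted p under 0.05, 0.133% of all, and 1 of the 26 member bins. That bin is chr12:3880001-3890000 in the Dnmt3a window, centred 78.0 kb from the H3K4me3 region. It held 47 reads in EBs against 16 in undifferentiated XT67E1, 26 in EBs against 12 in undifferentiated LF2, and 33 in EBs against 12 in undifferentiated E14. In RPM the EBs had 5.91 in XT67E1, 6.03 in LF2 and 7.47 in E14, and the undifferentiated cells 1.99, 2.75 and 2.72 in those lines. H3K27me3 was higher in EBs in 3 of 3 lines. The bin was picked by this test on the same libraries, so that agreement is a description and not further support. The log2 difference was 1.32 (SE 0.27; limma, Benjamini-Hochberg adjusted p = 0.0185), and atRA cells of XT67E1 held 23 reads in the same bin. No 2 kb part of the bin passed on its own (limma, adjusted p = 0.584 to 0.863). The call was lost without XT67E1 (adjusted p = 0.113) and without the line block (adjusted p = 0.243).

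**Figure D4:**
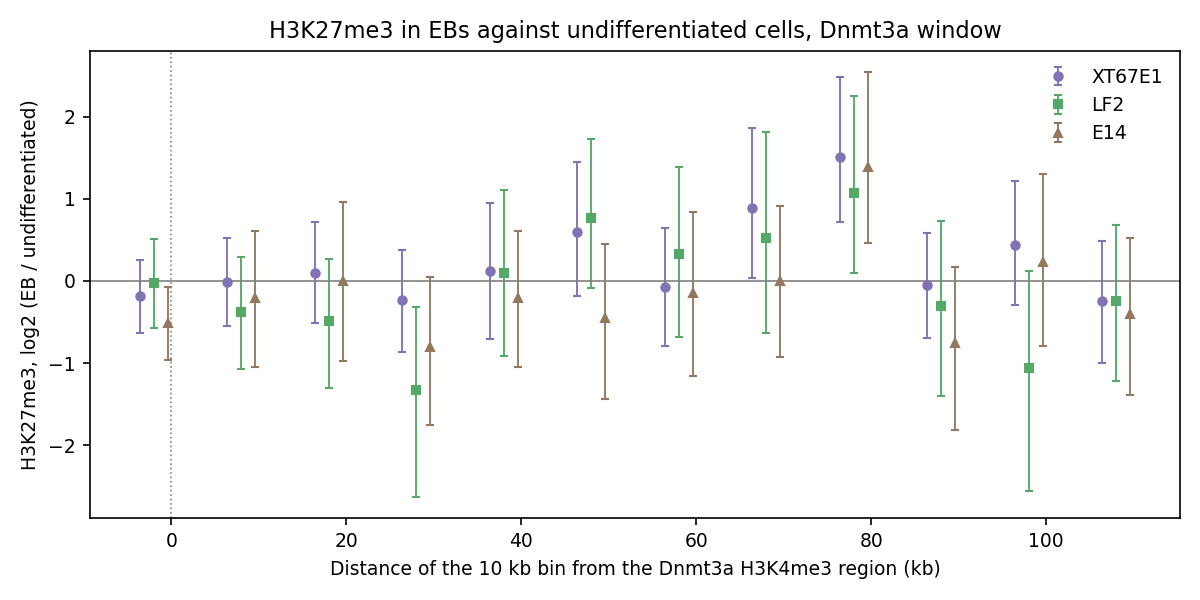
Log2 ratio of H3K27me3 in EBs to undifferentiated cells in each 10 kb bin of the Dnmt3a window (x axis, distance of the bin's centre from the H3K4me3 region in kb, lines set apart sideways; bars are exact conditional binomial 95% intervals from counting). In the bin at 78.0 kb the ratio was 1.51 for XT67E1, 1.07 for LF2 and 1.38 for E14.

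The other member bins did not pass. The smallest p of the remaining Dnmt3a bins was at chr12:3830001-3840000, with a log2 difference of -0.79 (limma, adjusted p = 0.335). Each other gene's bin of smallest p had a log2 difference of -0.60 at chr2:153510001-153520000 for Dnmt3b (limma, adjusted p = 0.635), 0.54 at chr10:77510001-77520000 for Dnmt3l (limma, adjusted p = 0.667) and 0.55 at chr9:20720001-20730000 for Dnmt1 (limma, adjusted p = 0.753). Of the 26 bins, 13 were higher and 13 lower in EBs, with a median of 0.018 beside 0.034 over all bins.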

How the data were processed

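ChIP-seq was analysed in 10 libraries. The deposited files hold other values than counts: each row gives the start and end of a 200 bp interval with no strand, value or repeat. The build is mm9, per the submitters' processing notes. The aligner, filters and the step that gave files of a set equal read numbers are not stated in the sources used.

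Groups came from the labels. Interval midpoints were counted in 2 kb and 10 kb bins, windows and H3K4me3 regions with Python 3.11.15 (numpy 2.4.6, pandas 2.3.3, scipy 1.17.1). Bins more than 50% inside a window belong to it, as do bins exactly 50% inside at its upper end. EBs were tested against undifferentiated cells with limma 3.58.1 in R 4.3.3 (log2 of scaled counts with an intensity trend, at least 60 reads over 6 libraries, two-sided). Its 43.3 degrees of freedom come mostly from pooling over bins. The cell line pairs the libraries by the labels, and deviations correlated at 0.240 in E14, 0.0844 in LF2 and 0.185 in XT67E1.

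Named bins were every H3K4me3 region, the 3 bins richest in H3K27me3, and called or extreme bins of each window. Both procedures were tested on simulated data. Alternatives were other bin sizes and grids, read minimums, pseudocounts and scalings, voom weights, a fit without the line block, and 1 line left out at a time. Members, lists and tests were chosen with earlier results of these data known. The direct EB to atRA and between-line comparisons were added after seeing the data. A list of other DNA methylation genes and the cell type markers need an mm9 annotation and were not analysed here, nor was the ChIP-chip part of the series. Promoter sequences are RefSeq's, and all 4 genes matched by symbol.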

Additional observations from a re-analysis of the deposited data

Results flagged for a closer look

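H3K27me3 over the Dnmt3b window moved in opposite directions in 2 lines. The log2 ratio of EBs to undifferentiated cells was 0.49 in XT67E1 (0.14 to 0.84), where 93.1% of same-length tiles had a lower ratio, and -0.43 in E14 (-0.86 to -0.013), where 12.2% had a lower one. Background scaling moved the E14 ratio to -0.33. This shift of 0.11 exceeds the E14 interval's distance from no change, so that the E14 side depends on the scaling. Each line has 1 library per state, and the difference between the lines was not tested. The EB densities were close, at 1.13 times the autosomal mean in XT67E1 and 1.01 times in E14, while the undifferentiated ones were 0.803 and 1.36 times.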

How the results depend on the processing

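Read depth limits most bins: of 125 bins in the windows, 6 to 24 could be tested in a comparison of a differentiated state with undifferentiated cells of the same line. The number of member bins called by size moved as follows. For H3K4me3, 1 kb bins gave 2 of 8 after atRA, against 15.1% of all bins, and 1 of 8 in EBs, against 16.3%. A grid shifted by 1 kb gave 1 of 9 in EBs, against 16.2%. The Dnmt1 bin from 20757001 was called in each case. On the shifted grid after atRA it was the only bin called, 1 of 8 against 17.1% of all bins. No Dnmt3l bin was called there, and the bin over that window's lower edge did not belong to the window. For H3K27me3 without a read minimum, 4 of 125 bins were called after atRA, against 3.07% of all bins. In XT67E1 EBs 10 of 125 were called, against 3.34%. In LF2 EBs 6 of 124 were called, against 2.59%, and in E14 EBs 4 of 124, against 2.22%. A pseudocount of 5 reads gave 0 of 24 after atRA, against 3.77% of all bins, and the shifted grid 0 of 20, against 5.80%. The shifted grid gave 1 of 21 in XT67E1 EBs, against 6.33%, without the Dnmt3a region. Background scaling after atRA called 1 of 24 bins, against 7.13% of all. That bin was a higher one at Dnmt3a from 3818001, in place of the lower Dnmt3b bin. In E14 EBs 10 kb bins called 1 of 24, against 5.02% of all, the higher one from 3880001 in place of the Dnmt3a region. Background scaling gave 1 of 24 in XT67E1 EBs, against 7.17% of all bins, and 2 of 8 in LF2 EBs, against 21.0%. In 1 kb bins 0 of 5 were called in XT67E1 EBs, against 7.62%, and 0 of 2 in LF2 EBs, against 16.1%. In 10 kb bins 1 of 26 was called in XT67E1 EBs, against 3.27%, and 3 of 24 in LF2 EBs, against 7.08%.

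In limma the count of member bins was 0 without the replicate block and 0 with 2 kb bins. With 2 kb bins the smallest limma adjusted p was 0.584 over 93 bins. Of these, 14 had an unadjusted limma p under 0.05, against 5.90% of all 2 kb bins tested. Without the block 2 of 26 bins did, against 5.15% of all bins, and 10 bins were called over the genome. Leaving out a line gave 0 to 1 bins, with 0 without XT67E1. The Dnmt3a bin's log2 difference stayed at 1.23 to 1.45 over the alternatives, and its adjusted p ran over 0.00748 to 0.243.

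The mean H3K27me3 ratio of the Dnmt3a window reversed to 0.030 with scaling by the median of bin ratios, and its LF2 ratio became 0.24. Leaving out a line moved the means to between -0.17 and 0.026 at Dnmt3a, -0.42 and 0.033 at Dnmt3b, 0.36 and 0.46 at Dnmt3l, and 0.027 and 0.26 at Dnmt1. The Dnmt3a mean was 0.026 without E14, and the Dnmt3b mean was 0.028 without LF2 and 0.033 without E14. Median scaling shifted all ratios by 0.33 in LF2 EBs and in H3K4me3 of EBs, and background scaling by -0.23 in LF2 EBs. The ratios called at the H3K4me3 regions kept their direction under both scalings, the direct comparisons between lines and of EBs with atRA cells included. Under median scaling Dnmt3b in LF2 dropped under 2-fold at -0.91, with an interval that included no change. Ratios near 0 changed sign, among them H3K4me3 of EBs at the Dnmt3a region, 0.30 under median scaling, and at the Dnmt3b region, -0.022 under background scaling. The Dnmt3l window stayed higher in EBs of each line, though its XT67E1 interval included no change under background scaling. The causes of these differences were not tested.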

Other observations

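At the far end of the Dnmt1 window the 2 bins richest in H3K27me3 varied between libraries. Reads were fewer in EBs than in undifferentiated cells of 2 of 3 lines in the first and 3 of 3 in the second. The 10 kb bin chr9:20760001-20770000, which covers both, had a log2 difference of -0.35 (limma, adjusted p = 0.804) and was not called. The bin chr9:20762001-20764000 held 14 reads after atRA, 3 in EBs and 15 in undifferentiated XT67E1, 11 in EBs and 13 in undifferentiated LF2, and 6 in EBs and 3 in undifferentiated E14. The bin chr9:20764001-20766000 held 10 reads after atRA, 12 in EBs and 21 in undifferentiated XT67E1, 3 in EBs and 12 in undifferentiated LF2, and 3 in EBs and 6 in undifferentiated E14. In the RefSeq gene order S1pr2, a receptor for sphingosine 1-phosphate, and Eif3g, a translation initiation factor subunit, are the neighbours of Dnmt1.

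At Dnmt3l the bin richest in H3K27me3, chr10:77504001-77506000, held 10 reads after atRA, 15 in EBs and 10 in undifferentiated XT67E1, 5 in EBs and 8 in undifferentiated LF2, and 11 in EBs and 8 in undifferentiated E14. It lies between the 2 H3K4me3 regions of the window.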
